A study of Rattus norvegicus with 3 samples.

Results

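The broad exonic peaks of an olanzapine liver library are described here. They are the H3K4me2 peaks on chromosomes 1 to 20 that the authors placed in the exonic or splicing class and that are 1500 bp or longer. The peaks were thus selected on their length and class in this library. The rule found 363 of the 7128 peaks in the olanzapine list (5.09%), and all 363 are of the exonic class. These 363 peaks cover 0.763 Mb, which is 14.7% of the 5.18 Mb covered by the whole list. Another 3 exonic peaks of this length lie on chromosome X or unplaced sequence and were not counted.

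The libraries came from liver of female Sprague-Dawley rats given olanzapine (3 mg/kg), clozapine (20 mg/kg) or drug-free vehicle, 2 times a day by mouth for 9 weeks. The drugs were mixed into sweet pellets, but rats came to avoid the clozapine pellet. Clozapine was then given by syringe into the mouth, followed by a drug-free pellet. This difference in delivery cannot be told apart from the drug. There were 12 animals per group, and 1 ChIP-seq library per group was deposited, each labelled with a single rat. The rats were fed standard chow and were fasting when liver was taken, and whole liver tissue was used, so cells other than hepatocytes are included. The sources give a starting weight for the rats and no age. Peaks of both drug libraries were used, and vehicle peaks were not analysed here. Neither drug has a replicate, so the values describe single libraries and no test between drugs was possible. The files hold no read numbers, so the depth behind a peak is unknown. By the study's read summary, the clozapine library had far fewer mapped reads than the olanzapine library, from similar numbers of clean reads.

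H3K4me2 is histone H3 carrying 2 methyl groups on lysine 4. It is written by methyltransferases of the MLL and SET1 family and is found at active and poised promoters and at enhancers. At an active gene it commonly flanks the start site and runs into the transcribed region, and long stretches of H3K4 methylation are known at genes that define a cell type. In hepatocytes such genes include those for plasma proteins, metabolic enzymes and the liver transcription factors of the C/EBP and FOXA families.

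Promoter sequences of 4 genes with a broad exonic peak show how different the promoters of such genes can be. Each runs from 250 bases before to 50 bases after the RefSeq start of the gene, 5′ to 3′ on the gene's own strand, in assembly GRCr8, with every CpG dinucleotide in capitals. The peaks are in Rnor_6.0, and positions were not carried from one assembly to the other, so coverage of the exact window printed was not measured. By gene starts placed in Rnor_6.0, described below, the peaks of Bhlhe40 and Cebpb covered the gene start. The Alb peak began after it, and no start was placed for Cyp1a2.
Bhlhe40 (chr4:143174200-143174499, + strand): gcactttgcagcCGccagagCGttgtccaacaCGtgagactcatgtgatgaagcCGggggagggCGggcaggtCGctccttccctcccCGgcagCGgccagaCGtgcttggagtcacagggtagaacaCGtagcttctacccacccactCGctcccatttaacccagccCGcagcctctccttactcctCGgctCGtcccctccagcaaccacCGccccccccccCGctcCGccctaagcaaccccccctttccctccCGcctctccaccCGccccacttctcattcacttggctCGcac
Cebpb (chr3:176816755-176817054, + strand): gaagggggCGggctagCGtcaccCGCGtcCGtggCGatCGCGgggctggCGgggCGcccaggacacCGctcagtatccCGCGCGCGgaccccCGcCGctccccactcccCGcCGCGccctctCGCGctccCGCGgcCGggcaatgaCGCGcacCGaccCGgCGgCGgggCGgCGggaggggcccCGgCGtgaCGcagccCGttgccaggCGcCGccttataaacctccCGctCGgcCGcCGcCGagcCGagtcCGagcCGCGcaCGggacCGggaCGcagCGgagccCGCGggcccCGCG
Alb (chr14:17906930-17907229, - strand): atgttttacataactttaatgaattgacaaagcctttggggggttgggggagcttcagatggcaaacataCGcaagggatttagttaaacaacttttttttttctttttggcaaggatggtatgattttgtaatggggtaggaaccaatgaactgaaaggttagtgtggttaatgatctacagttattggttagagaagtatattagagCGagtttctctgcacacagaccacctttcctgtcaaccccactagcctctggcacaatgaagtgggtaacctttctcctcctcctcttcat
Cyp1a2 (chr8:66978100-66978399, - strand): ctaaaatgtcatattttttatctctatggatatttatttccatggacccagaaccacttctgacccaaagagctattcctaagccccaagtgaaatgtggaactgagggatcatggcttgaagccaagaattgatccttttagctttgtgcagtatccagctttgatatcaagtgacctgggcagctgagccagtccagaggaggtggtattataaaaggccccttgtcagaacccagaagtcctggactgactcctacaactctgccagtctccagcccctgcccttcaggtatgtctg
The window of Bhlhe40, a clock repressor with the longest of these peaks, held 20 CpG and 65.7% GC. The window of Cebpb, a transcription factor of the acute phase response, held 56 CpG and 81.0% GC. The window of Alb, the albumin gene, held 2 CpG and 40.7% GC. The window of Cyp1a2, a drug-metabolising cytochrome P450 that also oxidises olanzapine and clozapine, held 0 CpG and 46.3% GC. The first pair are CpG-rich promoters and the second pair are CpG-poor. All 4 genes are examples taken from the broad set, so the breadth of their peaks was given by the selection. Peak length ran from 2748 bp at Cyp1a2 to 4769 bp at Bhlhe40. In Rnor_6.0 the peak of Cebpb lay on chromosome 3 from 164423622 to 164427103, that of Alb on chromosome 14 from 19188325 to 19191397 and that of Cyp1a2 on chromosome 8 from 62455298 to 62458045.

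The peaks were long, and their fold enrichment lay within the range of shorter peaks apart from 1 at the low end. Length ranged from 1501 to 4769 bp, with a median of 1897 bp (quartiles 1663.5 and 2382 bp), against a median of 630 bp in the 2529 shorter, or narrow, exonic peaks of the same chromosomes. The fold enrichment, which is the authors' ratio over a background that the sources do not name, had a median of 4.41 in broad exonic peaks (95% interval of the median 4.35 to 4.52) and 4.26 in narrow exonic peaks (4.23 to 4.29). It ranged from 2.67 to 7.42 in broad peaks, and reached 8.84 in narrow ones. The median −log10 p was 6.20 in broad and 5.85 in narrow peaks, and the median −log10 q was 2.78 and 2.50. Length and these peak values come from the library that chose the peaks, so they are given as a description without a test. Across the 363 peaks, length and fold enrichment had a Spearman correlation of −0.034 and a Pearson correlation of −0.092. All points share 1 library.

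**Figure D1:**
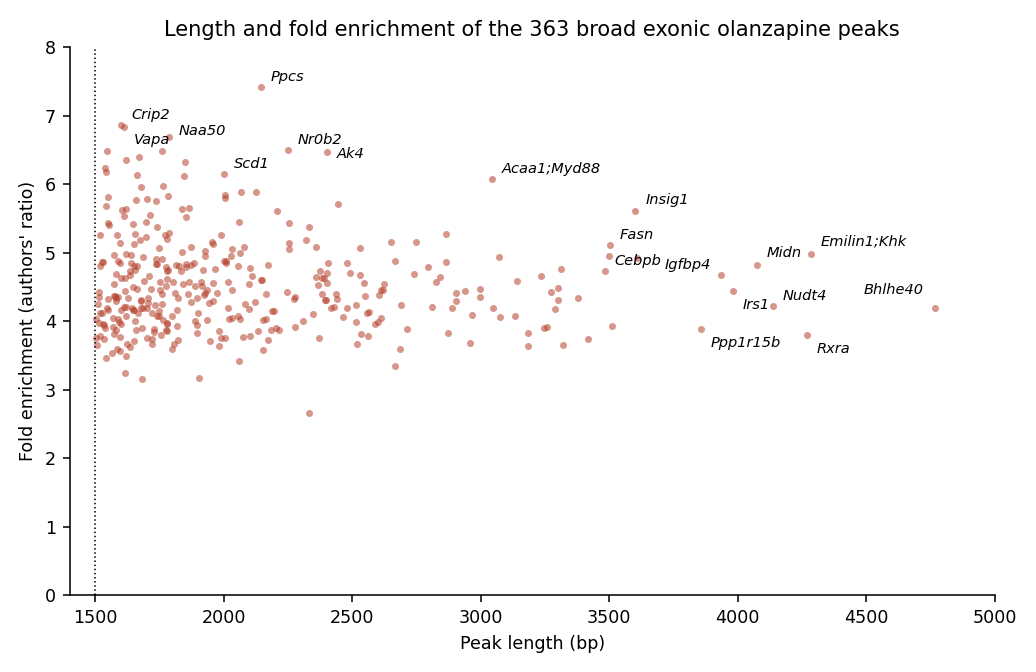
Length in bp (x axis) and fold enrichment as the authors' ratio (y axis) of the 363 broad exonic olanzapine peaks, 1 point per peak, with the dotted line at the 1500 bp limit. Bhlhe40 lies farthest right at 4769 bp with a fold of 4.20 and Ppcs lies highest at 7.42, and the longest peaks are not the most enriched.

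The 10 longest peaks held regulators of metabolism and signalling. Bhlhe40 came first with 4769 bp on chromosome 4 from 140703160 to 140707928. Rxra, the retinoid X receptor that pairs with PPAR, LXR and FXR, had 4269 bp on chromosome 3 from 6210909 to 6215177. Irs1, which relays the signal of the insulin receptor, had 3983 bp on chromosome 9 from 88082391 to 88086373. Insig1, which holds the SREBP complex in the endoplasmic reticulum when sterols are plentiful, had 3602 bp on chromosome 4 from 342333 to 345934. A single peak of 4285 bp was assigned to both Emilin1, a matrix protein, and Khk, the fructokinase. The others were Nudt4 (4137 bp), which acts on inositol pyrophosphates, Midn (4073 bp), which helps deliver proteins to the proteasome, Igfbp4 (3934 bp), which binds insulin-like growth factors, Ppp1r15b (3858 bp), which directs a phosphatase to eIF2α, and Slc38a2 (3609 bp), an amino acid transporter. Their fold enrichments lay between 3.80 for Rxra and 5.60 for Insig1, within the range of the other peaks.

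The 10 peaks of highest fold enrichment were another set. Ppcs, an enzyme of coenzyme A synthesis, had a fold of 7.42 over 2145 bp. Crip2, a LIM domain protein, followed with 6.86, Vapa, a membrane tether of the endoplasmic reticulum, with 6.84, and Naa50, an acetyltransferase of protein N-termini, with 6.70. Nr0b2, the nuclear receptor SHP that represses bile acid synthesis, had a fold of 6.50 over 2248 bp. Ugt2b35, a glucuronosyltransferase, had 6.49, Stk24, a kinase, 6.49, Ak4, a mitochondrial adenylate kinase, 6.47, Crem, a modulator of cAMP response, 6.40, and Rps6ka1, a kinase downstream of ERK, 6.36. None of these 10 was among the 10 longest, and Ak4 was the longest of them at 2402 bp.

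Peaks at the length limit do not stand apart from those below it. Just inside lay Cct7 and Id4 with 1501 bp each, Rock1 with 1505 bp and C3 with 1513 bp. Just outside lay Inhbe and Topors with 1498 bp each, Spata2L with 1497 bp, Erf with 1496 bp and Sars with 1495 bp. Fold enrichment was 3.66 to 4.42 in the first set and 3.46 to 4.55 in the second.

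The class of a peak moved with its length throughout the list. The exonic or splicing class took 32.0% of peaks below 500 bp, 43.6% of those of 500 to 1000 bp and 51.5% of those of 1000 to 1500 bp. It took 58.4% of peaks of 1500 to 2000 bp, 62.9% of those of 2000 to 2500 bp and 75.5% of those of 2500 bp or more (74 of 98). The intergenic share ran the other way, with 29.4% of the shortest and 7.14% of the longest peaks. A longer peak can meet an exon more often by its length alone, and how much of the trend this gives was not tested.

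Lengths also depend on how the authors joined enriched stretches. The smallest gap between neighbouring peaks was 785 bp in the olanzapine list, where the shortest peak was 196 bp, and 681 bp in the clozapine list, where the shortest was 170 bp. In each list the smallest gap was 1 bp above 4 times the shortest peak (784 and 680 bp), so separate stretches closer than that do not occur and a broad peak can hold more than 1 of them. The joining step itself is not given in the sources used here. When peaks with gaps of up to 2000 bp were joined, a setting chosen after seeing the data, 30 of the 363 peaks merged with a neighbour. The longest merged stretch was at Fetub, the gene of the plasma protein fetuin-B, with 3 peaks over 6911 bp on chromosome 11. Igfbp4 followed with 6642 bp, Zfp36l1 with 5857 bp, Sall1 with 5549 bp, Cebpa with 5057 bp, Sdc4 with 4970 bp and Alb with 4911 bp.

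Where gene starts could be placed, most broad exonic peaks lay across the start of their gene. The authors' own distances between peaks and genes gave the Rnor_6.0 position of 4485 gene starts, with the strand taken from RefSeq. The side of the gene fitted that strand for 117 of 121 upstream peaks whose gene start was also given by intergenic peaks (96.7%). Of the 363 peaks, 113 had such a start, and 80 of the 113 covered it (70.8%, 95% Wilson interval 61.8 to 78.4), against 264 of 668 narrow exonic peaks (39.5%, 35.9 to 43.3). In the 5′ UTR class, 27 of 32 peaks of 1500 bp or more covered the start (84.4%). The 80 peaks reached a median of 676.5 bp upstream (quartiles 451.5 and 965.5 bp) and 1174.5 bp downstream (889.75 and 1846.5 bp), and 59 of the 80 reached farther downstream. The other 33 all began after the gene start, 28 of them within 2000 bp of it, with a median gap of 362 bp. A longer peak covers more starts and an exonic peak has to reach an exon, so length and class fix part of this pattern. Genes with known starts are those near an intergenic or upstream peak of either library, and the placement was added after the data were seen.

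**Figure D2:**
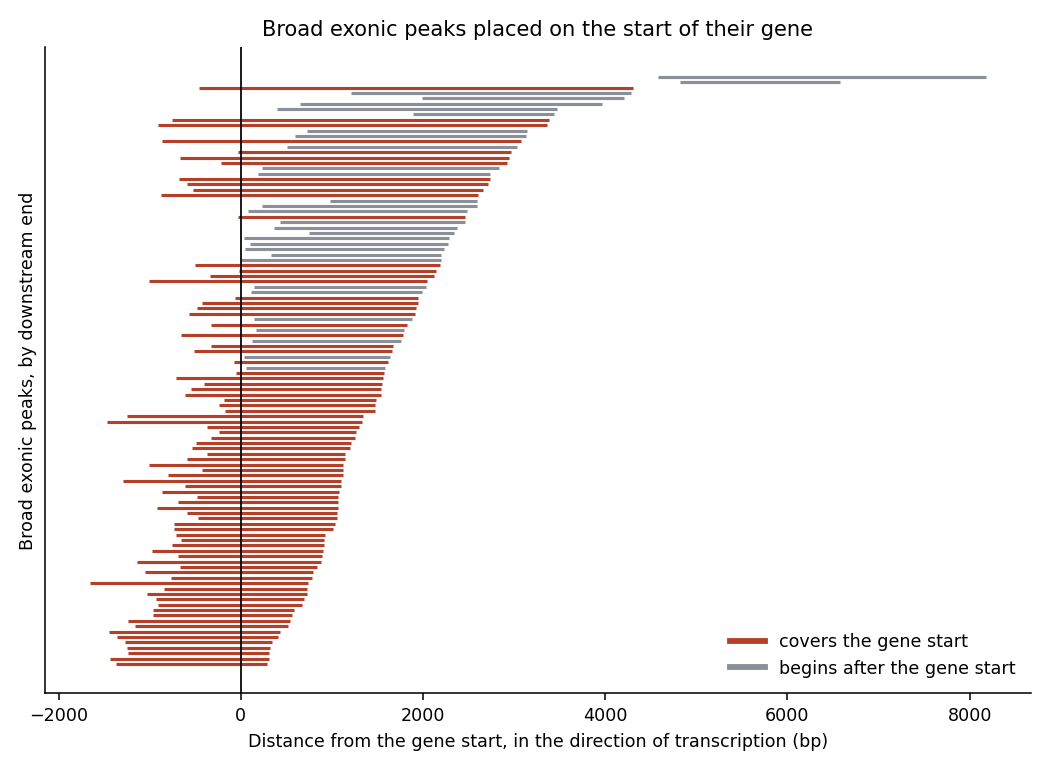
Position of broad exonic peaks relative to the start of their gene, in bp along the direction of transcription (x axis), 1 line per peak, ordered by downstream end from bottom to top. Of 110 peaks drawn, the 80 in red cover the start and the grey ones begin after it, and 3 peaks that begin more than 5000 bp away are not drawn.

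Single genes show the shapes. The Bhlhe40 peak reached 459 bp upstream and 4309 bp downstream of the start, and the Rxra peak 907 and 3361 bp. The peak of Cebpb, from 880 bp upstream to 2601 bp downstream, covered the entire gene, the sole such case among 45 peaks whose gene had both ends placed. Nr1d2, the clock receptor REV-ERBβ, had 712 and 926 bp, and Srsf6, a splicing factor, had more upstream (1048 bp) than downstream (791 bp). Some peaks began inside the gene. The Alb peak began 396 bp after the start, the Foxa2 peak 1213 bp after it and the Insig1 peak 4581 bp after it. Starts of a gene can differ between transcripts, and the start used is the one from which the authors measured distance. Peaks of Adcy1 and Crem began 89059 and 52699 bp after that start.

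The peaks carried 390 gene names, of which 387 (99.2%) matched RefSeq and gave 385 genes, 384 of them protein-coding. These are 2.07% of the 18533 protein-coding genes in the names table. A peak named more than 1 gene in 31 cases, and there the gene is uncertain. Edem1, which helps clear misfolded glycoproteins, had 2 broad exonic peaks 6617 bp apart, of 2005 and 1569 bp. Brd2, Ubald1, Slc25a22 and Nupr1 were each named at 2 distant positions of their chromosome, so which copy of the gene each peak belongs to is uncertain.

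Liver transcription factors were a leading group. Of 27 hepatocyte transcription factors, 8 had a broad exonic peak (29.6%, 15.9 to 48.5), against 2.07% of all protein-coding genes. A narrow one was found at 7 (25.9%, against 13.5%). The C/EBP factors Cebpa and Cebpb had peaks of 2417 and 3482 bp, and the pioneer factor Foxa2 had one of 3071 bp. Onecut1 had 1567 bp, Nr2f2 2345 bp, Nr0b2 2248 bp and Rxra 4269 bp. Cebpa also had an upstream olanzapine peak of 1678 bp, 962 bp from the broad one, and no clozapine peak within 20 kb.

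The circadian clock list had broad exonic peaks and no narrow ones. Of 18 clock genes, 5 had a broad exonic peak (27.8%, 12.5 to 50.9), against 2.07% of all protein-coding genes. A narrow one was found at 0, against 13.5% of all protein-coding genes, which lies below the upper bound for 0 of 18 (17.6%). An upstream or 5′ UTR olanzapine peak was listed for 1 gene of the list. The 5 were Bhlhe40, the PAR leucine zipper factors Dbp (1598 bp, fold 4.64) and Tef (1758 bp, 4.40), and the REV-ERB receptors Nr1d1 (1636 bp, 3.63) and Nr1d2 (1639 bp, 4.86). These are output and feedback genes that cycle strongly in liver. Core activators and the Per and Cry genes of the list had no exonic peak, and the lighting hours were the same for all rats.

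Immediate early and stress-induced regulators had broad exonic peaks at 7 of 30 genes (23.3%, 11.8 to 40.9) and narrow ones at 11 (36.7%). Among all protein-coding genes the shares were 2.07% and 13.5%. The AP-1 subunits Junb and Jund had 1821 and 1641 bp, the MAP kinase phosphatase Dusp1 1874 bp, and the mRNA decay factor Zfp36l1 3418 bp. Klf9, a zinc finger factor induced by glucocorticoids, had 3320 bp, and Btg1 and Gadd45g, which restrain growth, had 1583 and 1531 bp.

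Secreted hepatocyte proteins had the highest broad and narrow shares of the 25 lists. Broad shares were close behind in liver transcription factors (29.6%) and clock genes (27.8%), with overlapping intervals. Of 26 secreted hepatocyte proteins, 8 had a broad exonic peak (30.8%, 16.5 to 50.0) and 17 a narrow one (65.4%). The shares of all protein-coding genes were 2.07% broad and 13.5% narrow. They were Alb (3073 bp), Ambp (3512 bp), the transferrin gene Tf (2381 bp), the retinol carrier gene Rbp4 (2530 bp), the antithrombin gene Serpinc1 (2687 bp), complement C3 (1513 bp), the iron hormone gene Hamp (1727 bp) and Fgf21 (1865 bp), a fasting hormone. Among these Fgf21 had the highest fold at 5.66 and Serpinc1 the lowest at 3.59. Of 24 hepatocyte metabolic enzymes 4 had a broad exonic peak: Arg1 of the urea cycle (2333 bp), Cyp1a2 (2748 bp), Cyp2e1 (2204 bp) and Cyp8b1 of bile acid synthesis (2535 bp).

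Lipid genes were also represented, beside shares of 2.07% broad and 13.5% narrow in all protein-coding genes. In the lipid synthesis and SREBP list, 7 of 26 genes had a broad exonic peak (26.9%, 13.7 to 46.1) and 4 a narrow one. They were the fatty acid synthase Fasn (3503 bp, fold 5.12), the desaturases Scd (2000 bp, 6.15) and Fads2 (2017 bp, 4.58), the triglyceride synthesis enzyme Dgat2 (2865 bp, 4.87), the lipid droplet coat gene Plin2 (2151 bp, 4.02), Thrsp, a regulator of lipogenesis (2400 bp, 4.71), and Insig1. In the cholesterol list, 6 of 23 genes had one (26.1%, 12.5 to 46.5). Among them were the synthesis enzymes Fdft1 (2321 bp), Fdps (1635 bp) and Sqle (1596 bp). In the fatty acid oxidation list, 3 of 22 genes had one, namely Hadha (1818 bp), Acadl (1826 bp) and the peroxisomal thiolase Acaa1a, whose peak of 3045 bp was shared with Myd88.

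Signalling and stress lists held fewer, beside the 2.07% of all protein-coding genes. Insulin signalling had 2 of 25 genes, Irs1 and the forkhead factor Foxo1 (3048 bp), and 7 with a narrow peak. Glucose metabolism had 1 of 23, the transporter gene Slc2a2 (2359 bp), and the unfolded protein list had 3 of 24, with Edem1, Herpud1 (2903 bp) and Ppp1r15b. The oxidative stress list had 1 of 19, the autophagy receptor gene Sqstm1 (2863 bp), and the cytokine list 1 of 23, the interleukin receptor gene Il6r (2008 bp). The H3K4 methylation machinery had 1 of 19, the demethylase Kdm5a (1887 bp), and the chromatin regulators 1 of 26, Brd2. For each of these lists with 1 gene the interval of the share included 2.07%.

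Genes active in every cell had both kinds of peak, and across all protein-coding genes the shares were 2.07% broad and 13.5% narrow. Housekeeping genes had 2 of 24 broad, among them the poly(A)-binding protein gene Pabpc1 (1927 bp), and 11 narrow. Ribosomal and translation genes had 2 of 26 broad, Eif1 (1832 bp) and Rpl3 (2062 bp), and 12 narrow. The splicing factors Hnrnpa1 (1758 bp), Hnrnpl (2100 bp), Hnrnpu (2276 bp) and Srsf6 (1840 bp) made 4 of 18 in their list. Ubiquitin and endosome regulators had 0 of 18 broad and 6 narrow, and developmental transcription factors 0 of 24 broad and 1 narrow.

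Markers of other liver cells had a broad exonic peak about as often as genes at large, with 1 of 67 over the 5 lists (1.49%, 0.264 to 7.98, against 2.07%). A broad exonic peak was found at 0 of 14 liver endothelial, 0 of 14 Kupffer cell, 0 of 14 hepatic stellate cell and 0 of 13 lymphocyte markers, and none of them had a narrow one. Of 12 cholangiocyte markers, 1 had a broad exonic peak and 0 a narrow one. No marker in the 5 lists thus had a narrow exonic peak, against 13.5% of all protein-coding genes. Over all lists together, 67 of 530 genes had a broad exonic peak (12.6%, against 2.07% of protein-coding genes) and 139 a narrow one (26.2%, against 13.5%). The lists were drawn up for liver, so this last contrast describes the choice of genes. They were also chosen with earlier results of these data known, so the contrast of each single list depends on that choice too.

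**Figure D3:**
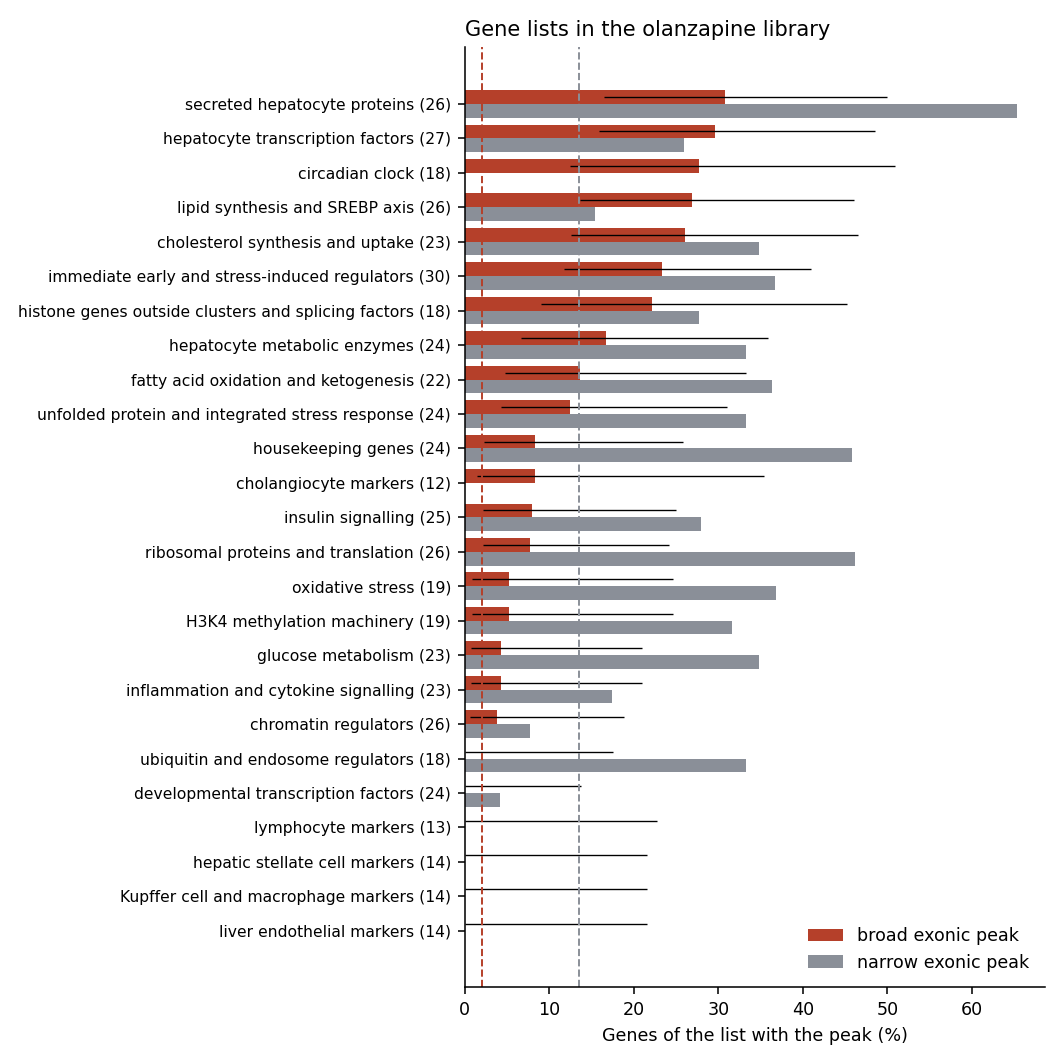
Share of the genes of each list (%, x axis) with a broad (red) or narrow (grey) exonic olanzapine peak, with the number of genes in brackets, 95% Wilson intervals on the broad shares, and dashed lines at the shares of all protein-coding genes (2.07% broad and 13.5% narrow). Secreted proteins, liver transcription factors and clock genes stand at the top for broad peaks, and endothelial, Kupffer, stellate and lymphocyte markers are among the lists at 0.

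The deposited tables of GO terms and KEGG pathways list the olanzapine genes behind each term, and these lists allowed another count. Of all 3629 genes listed for GO, 262 had a broad exonic peak (7.22%). The share was 17.0% for response to insulin (16 of 94), 15.4% for response to hormone (45 of 292), 14.6% for extracellular space (31 of 213) and 12.9% for lipid metabolic process (46 of 357). It was 5.19% for translation (12 of 231, 3.00 to 8.86) and 4.28% for chromatin organization (8 of 187, 2.18 to 8.21). Both of these intervals included 7.22%. Of all 2028 genes listed for KEGG, 174 had one (8.58%). The share was 28.6% for circadian rhythm (4 of 14), 21.6% for PPAR signalling (8 of 37), 20.0% for fatty acid metabolism (5 of 25), 16.7% for FoxO signalling (10 of 60) and 16.1% for AMPK signalling (9 of 56). It was 10.9% for insulin resistance (6 of 55), 9.09% for insulin signalling (6 of 66) and 8.45% for non-alcoholic fatty liver disease (6 of 71), near the share of all listed genes. It was 4.23% for ribosome (3 of 71, 1.45 to 11.7) and 4.35% for endocytosis (5 of 115, 1.87 to 9.78). For oxidative phosphorylation it was 1.79% (1 of 56, 0.316 to 9.45). Each of these intervals included 8.58%. Terms overlap and were picked with earlier results known, so no test was made.

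Overlap with the clozapine library was a measurement that the choice of peaks did not use. Of the 363 broad exonic peaks, 29 shared at least 1 bp with any of the 19449 clozapine peaks (7.99%, 5.62 to 11.2), against 80 of 2529 narrow exonic peaks (3.16%, 2.55 to 3.92) and 2.34% of all olanzapine peaks on these chromosomes. Long peaks of the 5′ UTR and upstream classes had a close share, 7 of 96 (7.29%, 3.58 to 14.3), and the remaining classes of this length, mostly intergenic and intronic, had 3 of 124 (2.42%, 0.826 to 6.87). Per Mb covered the order of the exonic groups turned, with 38.0 overlapping peaks per Mb in broad and 46.6 in narrow exonic peaks. Of the bases of broad exonic peaks 1.98% were shared with clozapine peaks, and of those of narrow exonic peaks 1.43%. Most broad exonic peaks of the olanzapine library therefore had no clozapine peak on them. The far lower number of mapped reads in the clozapine library cannot be told apart from the drug.

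The 29 peaks met 30 clozapine peaks, 29 exonic and 1 in a 3′ UTR. The clozapine peaks had a median of 584 bp, and 9 of the 30 were of 200 bp or less. Wide overlaps were found at the immediate early genes Jund, Junb and Dusp1. At Jund, on chromosome 16 from 20484948 to 20486588, the olanzapine peak of 1641 bp shared 1524 bp with a clozapine peak of 1594 bp. At Junb, on chromosome 19 from 26092836 to 26094656, the olanzapine peak of 1821 bp enclosed a clozapine peak of 1483 bp. Fold enrichments at Jund were 4.19 in olanzapine and 4.07 in clozapine, and at Junb 4.34 and 4.05. Dusp1 shared 903 bp, Nupr1, a stress-induced chromatin protein, 833 bp, Ext1, a heparan sulfate polymerase, 796 bp, Rnasek 739 bp, and Ech1, an enzyme of fatty acid oxidation, 635 bp. Hnrnpu shared 633 bp and Oaz1, the antizyme of polyamine synthesis, 600 bp with 1 of its 2 clozapine peaks.

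Other loci differed in shape between the libraries. At Zfp36l1 a clozapine peak of 2568 bp met the olanzapine peak of 3418 bp over only 49 bp at 1 end. At Cebpb the clozapine peak inside the broad peak was 170 bp long, the shortest length in that list. At Alb the olanzapine peaks were of 3073 bp and, 1150 bp away, 688 bp, with folds of 4.06 and 3.94. The clozapine library had 6 peaks spread along Alb, with lengths of 200 to 2522 bp and folds of 4.98 to 11.08, and 1 of them met the broad peak, over 30 bp.

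**Figure D4:**
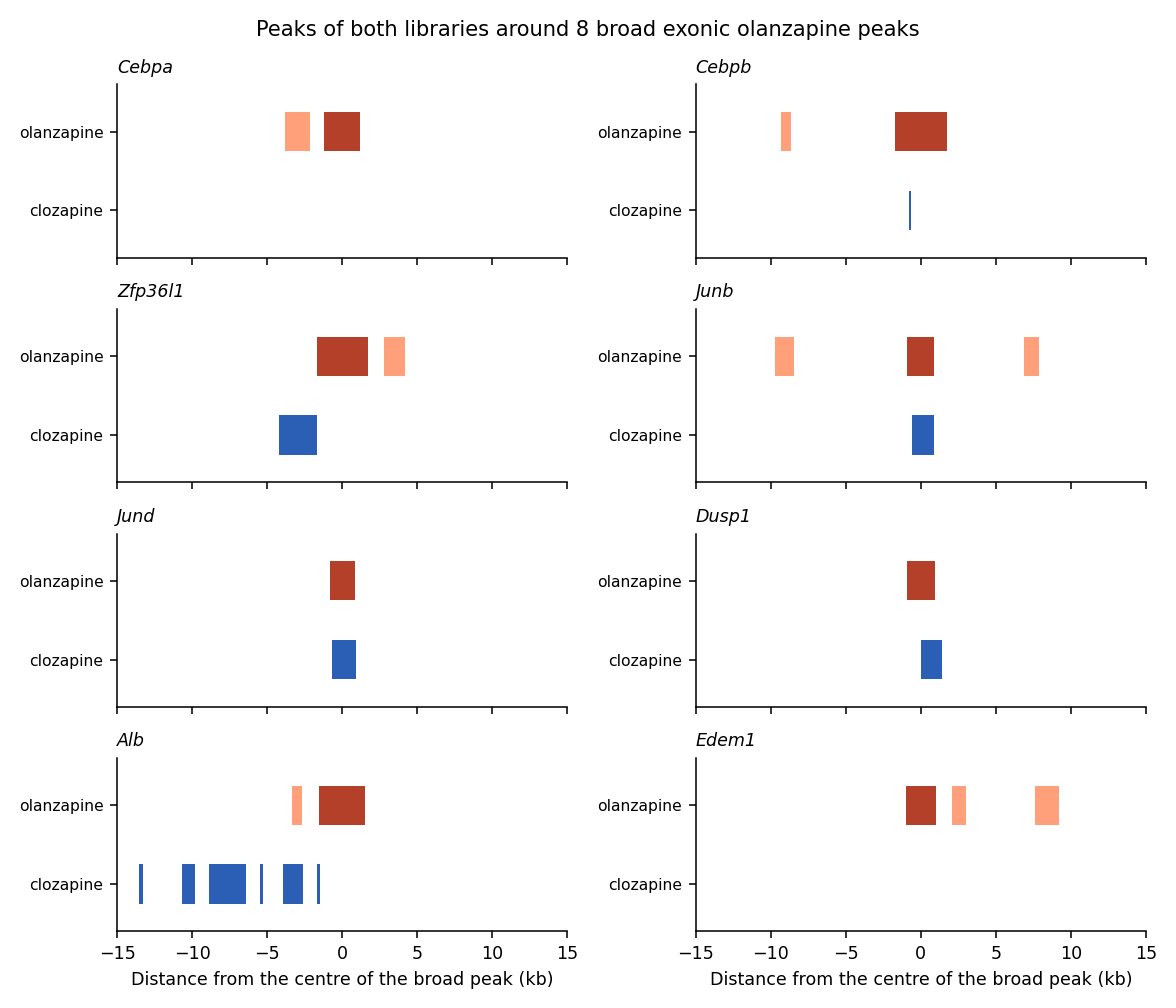
Olanzapine peaks (upper row: the broad exonic peak in dark red, other olanzapine peaks in a lighter shade) and clozapine peaks (lower row, blue) around 8 broad exonic peaks, with distance from the centre of the broad peak in kb (x axis). Peaks of both libraries lie over each other at Junb, Jund and Dusp1, while the 6 clozapine peaks of Alb lie along the gene beside the broad olanzapine peak and Cebpa has none. The bars show position and not height.

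At the level of genes the same libraries shared more. An exonic clozapine peak was found at 131 of the 385 genes with a broad exonic olanzapine peak (34.0%, 29.5 to 38.9), at 606 of 2501 genes with a narrow one (24.2%, 22.6 to 25.9) and at 13.7% of all protein-coding genes. With clozapine peaks of over 200 bp the shares were 24.7% and 15.3%, against 8.54% of all protein-coding genes. An intronic clozapine peak was found at 61 of the 385 genes (15.8%), at 21.0% of genes with a narrow exonic peak and at 15.9% of all protein-coding genes, so the broad set was at the share of genes at large. Since 29 peaks overlapped, most of these genes had their olanzapine and clozapine peaks at different positions. Long genes can carry more peaks, and gene length was not measured.

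Broad exonic genes rarely had a further olanzapine peak in the promoter classes. An upstream or 5′ UTR peak was listed for 7 of the 385 genes (1.82%), against 1.48% of genes with a narrow exonic peak and 7.04% of all protein-coding genes. A further narrow exonic peak was listed for 12 (3.12%, against 13.5% of all protein-coding genes) and an intronic one for 21 (5.45%, against 4.82%). Of the 113 broad exonic peaks with a placed gene start, 80 covered that start and were still classed as exonic. The promoter classes therefore do not count every peak at a gene start, and a low share in them does not mean an unmarked promoter. How the authors' classes rank a promoter against an exon was not tested. The nearest other olanzapine peak lay at a median of 35327 bp from broad exonic peaks and 42916 bp from narrow ones. A neighbour within 2000 bp was found for 30 broad (8.26%, 5.85 to 11.6) and 140 narrow peaks (5.54%, 4.71 to 6.50), and of the 30 neighbours 13 were intronic and 7 intergenic.

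Promoter windows of RefSeq were available for 321 of the 385 genes (83.4%). Their median GC content was 64.0% (62.3 to 64.7), against 61.0% for genes with a narrow exonic peak and 58.0% for all protein-coding genes. The CpG ratio, observed over expected from base content, had a median of 0.825 (0.781 to 0.857), against 0.818 (0.806 to 0.828) and 0.656. A CpG-rich window, with a ratio of at least 0.6 and at least 55% GC, was found in 229 genes (71.3%), against 70.4% and 47.1%. The intervals of the CpG ratio of the broad and narrow sets overlapped and neither reached that of all genes (0.648 to 0.663), while the GC interval of the broad set lay above that of the narrow set (60.7 to 61.7%). Within the broad set, the median CpG ratio was 0.247 for the 8 secreted proteins (0.119 to 1.04) and 0.063 for 3 of the metabolic enzymes, and it was 0.897 for the 7 immediate early genes and 0.728 for the 5 clock genes. Genes of the same lists without a broad exonic peak had medians of 0.335, 0.330, 0.845 and 0.808 in the same order, so a like contrast between lists was present without a broad peak. Alb and Cyp1a2, printed above, had 0.163 and 0.

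**Figure D5:**
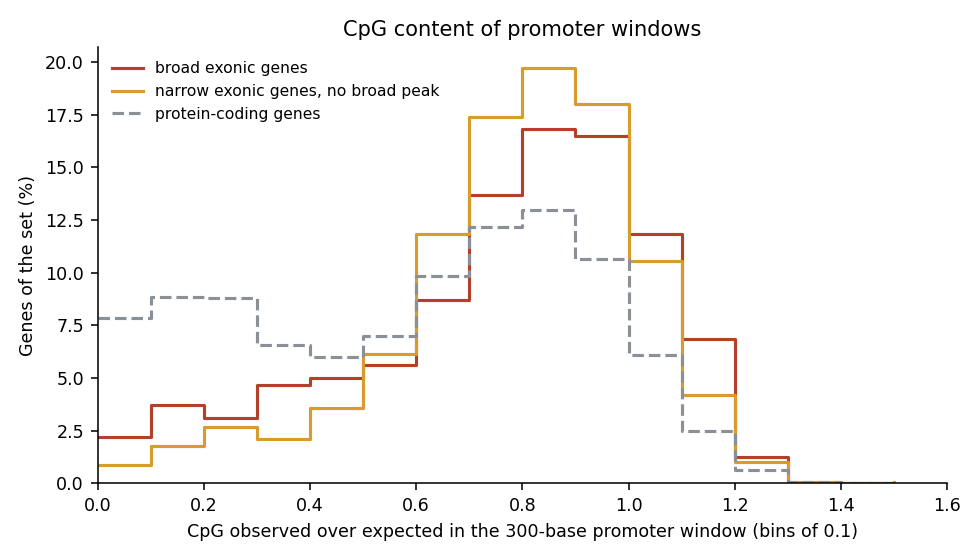
Share of genes (%, y axis) by CpG observed over expected in the 300-base promoter window (x axis, bins of 0.1), for genes with a broad exonic olanzapine peak (red), with a narrow one only (orange) and for all protein-coding genes (grey, dashed). The broad and narrow sets peak together at CpG-rich values, with medians of 0.825 and 0.818, while genes at large have a larger group of CpG-poor windows and a median of 0.656. The broad set has more CpG-poor windows than the narrow set, with lower quartiles of 0.616 and 0.675, against 0.294 in genes at large.

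Short motifs were searched on both strands of the same windows. The ETS letters CCGGAAG stood in 12.1% of windows of broad exonic genes (9.02 to 16.2), against 23.2% of narrow exonic genes (21.5 to 25.1) and 12.9% of all protein-coding genes. The E-box CACGTG, which clock and MYC family factors can bind, stood in 12.8% (9.56 to 16.9), against 10.3% and 7.98%. Of the 5 clock genes, Bhlhe40 and Tef held one. The GC box GGGCGG stood in 70.7%, against 67.0% and 49.8%, and TATAAA in 10.3% (7.41 to 14.1), against 6.17% (5.23 to 7.27) and 11.8%. CCAAT stood in 42.4%, against 39.6% and 38.2%, the AP-1 letters TGACTCA in 3.12%, against 3.13% and 3.93%, and GCATGCGC, read by NRF1, in 5.61%, against 6.17% and 3.78%. The C/EBP palindrome TTGCGCAA stood in 0 of 321 windows, against 0.374% and 0.257%. These are counts of letters in a short window and no binding was measured.

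The peaks were spread over all 20 chromosomes. Chromosome 10 had 42 (0.373 per Mb of the span of peaks), chromosome 12 had 0.266 per Mb and chromosome 20 had 0.249. The lowest densities were 0.0607 per Mb on chromosome 14 and 0.0614 on chromosome 13. Narrow exonic peaks were also densest on chromosomes 12 and 10, with 2.03 and 1.88 per Mb. The broad share of all exonic peaks lay between 7.61% on chromosome 14 and 16.5% on chromosome 10, and their intervals, 3.73 to 14.9 and 12.5 to 21.6, overlapped.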

How the data were processed

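ChIP-seq of H3K4me2 was made by the authors from cross-linked liver. Reads were aligned with BWA to Rnor_6.0, a build the submitters' processing notes also name, and uniquely mapped reads without mismatches were kept. The peak caller, its control and its threshold are not given in the sources used here. The deposited lists give a fold enrichment as a ratio and −log10 of a p-value and a q-value for each peak. Positions, lengths, classes and gene names are the authors'. The p-values of the deposited GO and KEGG tables were not used, only their gene lists.

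Peaks, gene lists and terms were chosen with earlier results of these data known. Genes were named by rule: the 10 longest peaks, the 10 of highest fold, genes with 2 peaks, members of the 25 gene lists, 5 peaks on each side of 1500 bp and the 10 widest overlaps with clozapine. Fetub, Sall1, Sdc4, Adcy1 and Crem's start distance were singled out after their values were seen. A few genes falling under this rule are not reported. Overlap meant 1 bp. Shares carry 95% Wilson intervals and medians 95% order-statistic intervals, which cover counting only. Gene starts spread over more than 100 kb for 1 name were dropped. Names and promoters came from RefSeq (GRCr8). Overlap and interval steps were tested on simulated data. Alternatives were other lengths, −log10 q or fold of at least 5, chromosome X added, the exonic class alone, a wider overlap, clozapine peaks over 200 bp and joined peaks. Scripts ran in Python 3.11.15 with pandas 2.3.3, numpy 2.4.6, matplotlib 3.10.9 and scipy 1.17.1.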

Additional observations from a re-analysis of the deposited data

How the results depend on the processing

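Of 46 alternatives, 31 left the value within the limits set for it and 15 moved it. The 31 include every count with the exonic class alone, which could not move because no peak is of the splicing class. They also include those with chromosome X added, which gave 365 peaks and so could move little. The number of unmoved values is therefore a weak measure of stability. The number of broad exonic peaks was 871 with a length of at least 1000 bp, 157 with at least 2000 bp, 18 with a −log10 q of at least 5 and 75 with a fold of at least 5. The genes of the lists with such a peak then numbered 113, 44, 3 and 13. The median fold was 6.36 with the q limit and 5.54 with the fold limit, which follows from the limits themselves. The share overlapping a clozapine peak was 0 of the 18 peaks with the q limit (upper bound 17.6%). The share of genes with an upstream or 5′ UTR olanzapine peak was 0 with the q limit and 0 with the fold limit. Genes with an exonic clozapine peak made 24.7% when clozapine peaks had to be over 200 bp. The median CpG ratio was 0.776 from 2000 bp. The cause of these last shifts was not tested. Joining peaks across gaps of up to 2000 bp, chosen after seeing the data, gave 471 stretches. No paired analysis was possible because there is 1 library per group.

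The main limits are 1 library per drug, no analysed vehicle list, an unnamed control behind the fold and joined stretches behind lengths. Read depth behind each peak is unknown, and the clozapine library had far fewer mapped reads. Exonic peaks include ones across a gene start. Gene length, expression and coverage of the promoter windows by peaks were not measured.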
